A study of Danio rerio with 9 samples.

Results

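The genes described here are 100 zebrafish genes of the KEGG pathways lysosome, phagosome, and endocytosis, out of 1154 genes named in any of 8 deposited pathway tables. They were chosen by the deposited gene lists themselves: a gene was taken if it was listed as a differentially expressed gene (DEG) under any of these 3 pathways for at least 1 compound. The lysosome pathway gave 18 genes, the phagosome pathway 24, and the endocytosis pathway 67, and 9 genes belonged to 2 of the pathways. Since the listing chose the genes, the number listed is a description and not a test.

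Liver was dissected from wild-type AB larvae of *Danio rerio* after 72 h in azithromycin, in any of its impurities F, I, J, L, Q, R, and S, each at 2 mM, or in DMSO, with exposure beginning at 3 days post-fertilization (dpf). Each of the 9 conditions was represented by 1 library of total RNA. The 8 compounds each had a table; the DMSO library enters only as the shared comparator, and a table of its own was not used here. How many larvae were pooled for a library is not given in the sources used here. The impurities are structural relatives of azithromycin that accompany the drug, and the study asked how their toxicity to the liver compares with that of the drug.

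The tables give the name and the direction of each DEG against DMSO, without expression values, so the depth of the libraries and the size of each change are unknown. The study names a fold change of at least 2 for its DEGs, and how far a gene lay from that threshold cannot be given. A gene that is not listed in a table was either not called as a DEG there or not annotated to a pathway. Neither shows that it was unchanged. With 1 library per condition there is no replicate error, no p-value was computed, and every difference below is a difference between single libraries. All comparisons share the DMSO library, so a direction seen for several compounds is not several independent observations. In dissected tissue, fewer cells of a type and less RNA per cell cannot be told apart.

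Endocytosis carries membrane and cargo into the cell: adaptor proteins gather cargo under a clathrin coat, dynamin and its partners cut the vesicle free, and Rab and Arf GTPases direct it to early endosomes. From there the ESCRT complexes sort ubiquitinated receptors towards the lysosome, an acid compartment filled with hydrolases, whereas phagosomes take up whole particles and mature by fusing with the same endosomes and lysosomes. In the liver these routes clear proteins and lipoproteins from the blood, and the resident macrophages clear particles. Azithromycin is a weak base that is known to accumulate in lysosomes.

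The 3 pathways differed in how much of them was listed and in which direction. In the endocytosis pathway, 22 to 28 of 285 background genes were listed per compound, and in the lysosome pathway 1 to 8 of 121. In the phagosome pathway 4 to 12 of 130 were listed. Upregulated entries made up 71.8% of the 39 gene and compound entries of the lysosome pathway and 73.5% of the 68 entries of the phagosome pathway, against 47.2% of the 195 entries of the endocytosis pathway. Over all genes of the tables, 50.8% of 3265 entries were upregulated. A gene listed for several compounds gives several entries against the same DMSO library. Counted once per gene, 13 lysosome genes were always upregulated, 4 always downregulated, and 1 of both directions. The corresponding numbers were 16, 5, and 3 for phagosome and 30, 33, and 4 for endocytosis. In the lysosome pathway, 2 genes were upregulated and 0 downregulated for azithromycin, 4 and 2 for impurity I, and 3 and 1 for Q. The counts were 1 and 0 for L, 5 and 1 for S, 7 and 1 for F, and 3 and 3 for J and for R. Of all genes listed for a compound, 48.7% (impurity S) to 52.3% (azithromycin and R) were upregulated. The phagosome pathway had more upregulated genes for every compound, but 4 of its genes also count in the endocytosis pathway. For azithromycin, *rab5aa*, *rab5b*, and zgc:100918 of these were among 5 upregulated phagosome genes, against 3 downregulated. The excess of upregulated phagosome genes for azithromycin therefore rests on genes that both pathways share. For each impurity, upregulated phagosome genes still outnumbered downregulated ones with the shared genes left out, for impurity Q by *pik3c3* alone.

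**Figure D1:**
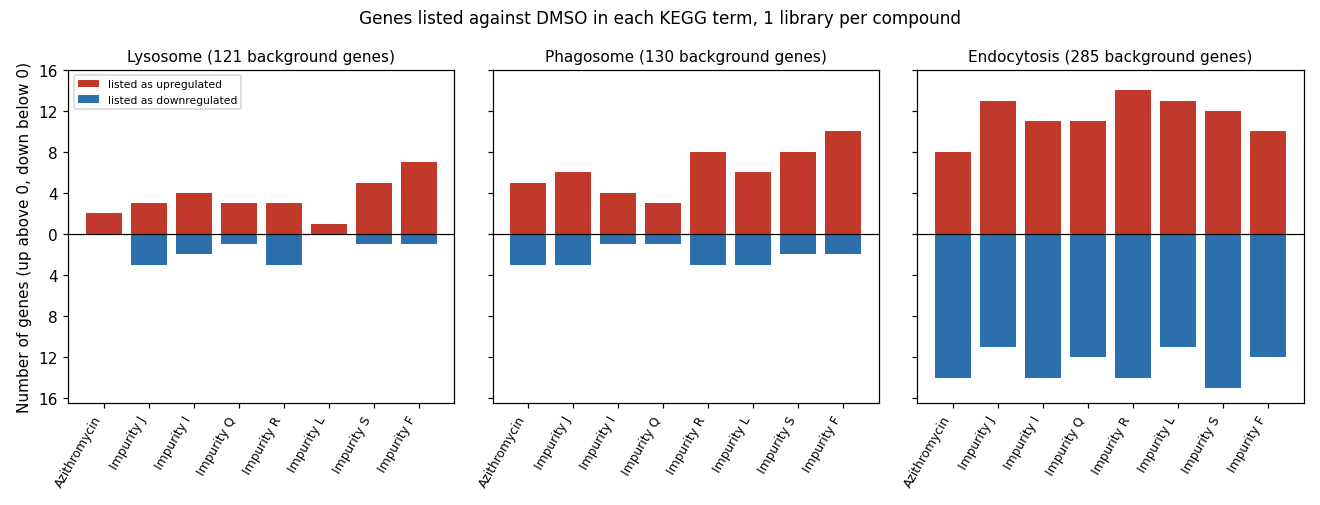
Number of genes of each KEGG pathway listed against DMSO for the 8 compounds, with upregulated genes as bars above 0 and downregulated genes as bars below 0; each bar is a count from 1 library, with no error. The phagosome bars are longer above 0 for every compound, from 3 up and 1 down for impurity Q to 10 up and 2 down for impurity F, whereas the endocytosis bars run from 8 up and 14 down for azithromycin to 14 up and 14 down for impurity R. The phagosome and endocytosis bars share 4 genes.

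The share of the endocytosis pathway that was listed was 7.72% for azithromycin, 8.42% for impurity J, 8.77% for I, 8.07% for Q, 9.82% for R, 8.42% for L, 9.47% for S, and 7.72% for F. The corresponding share over all gene and pathway pairs of KEGG was 7.04% for azithromycin, 6.07% for impurity J, 6.93% for I, 6.96% for Q, 6.95% for R, 6.91% for L, 7.70% for S, and 7.11% for F. Endocytosis was thus above the KEGG share in each table, by less than 1 percentage point for azithromycin and impurity F. Of the 32 KEGG pathways with at least 100 background genes, 18 had a lower share than endocytosis for azithromycin and 17 for impurity F. For the other compounds this number ran from 21 for impurity L to 28 for J. The lysosome share was below it in each table, at 1.65% for azithromycin, 4.96% for impurities J, I, R, and S, 3.31% for Q, 0.826% for L, and 6.61% for F. For azithromycin and impurity L, none of the 32 KEGG pathways with at least 100 background genes had a lower share than lysosome, whereas 13 had a lower share for impurity F. The phagosome share ran from 3.08% for impurity Q and 3.85% for impurity I to 8.46% for R and 9.23% for F, on both sides of the KEGG share. These shares were not tested, because genes of 1 library are not replicates.

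**Figure D2:**
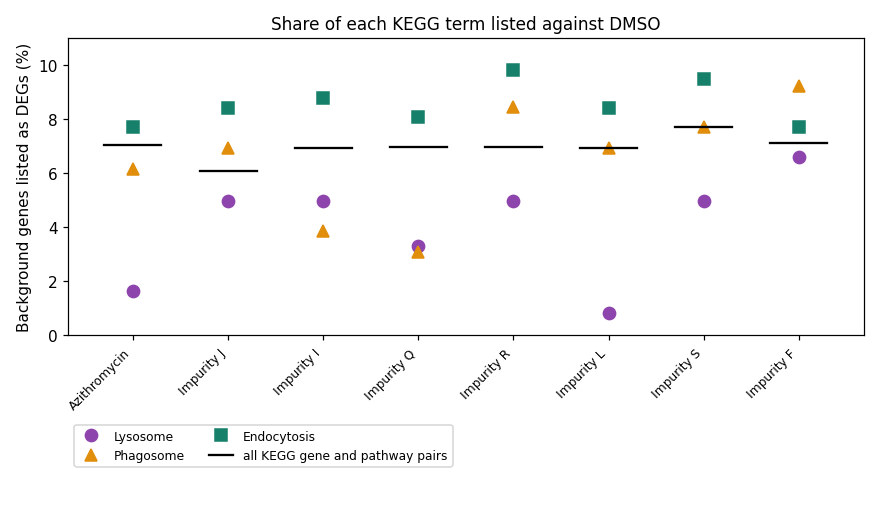
Share of the background genes of each KEGG pathway listed as DEGs (%, y axis) for each compound (x axis), with circles for lysosome, triangles for phagosome, and squares for endocytosis; the black line is the share over all KEGG gene and pathway pairs of the same table. The squares lie above the line in each table and the circles below it, with the lowest circle at 0.826% for impurity L.

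Counted once per gene over the 3 pathways, 12 of the 100 genes were upregulated and 17 downregulated for azithromycin, 19 and 16 for impurity J, 15 and 17 for I, 15 and 13 for Q, 22 and 19 for R, 17 and 14 for L, 21 and 18 for S, and 24 and 15 for F. Of the 1154 genes of all tables, the share listed as upregulated was 18.9% for azithromycin, 16.3% for impurity J, 18.6% for I, 18.4% for Q, 18.4% for R, 17.7% for L, 18.0% for S, and 17.5% for F. The share listed as downregulated was 17.2%, 16.5%, 17.1%, 18.0%, 16.7%, 16.8%, 19.0%, and 17.9% in the same order of compounds. Since there are 100 genes, their counts are also percentages, and the count for upregulated genes was below the share of all genes for azithromycin (12 against 18.9%) and above it for impurity F (24 against 17.5%). These listings chose the genes, so nothing is read from the distance. Among genes that a Reactome or PANTHER row of the same table also lists, every one of these counts was lower by over 1.5 times, and downregulated genes outnumbered upregulated ones for impurity J (6 up and 8 down), R (6 and 11), L (5 and 6), and S (7 and 10), the opposite of the full set. Impurity R had the largest number of these genes listed, 41, and impurity Q the smallest, 28.

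Among the 100 genes, 38 were listed for 1 compound, 18 for 5 or more, and 4 for all 8. In the tables that listed them, 52 genes were always upregulated, 41 were always downregulated, and 7 were upregulated for some compounds and downregulated for others. The files give 96 of them a symbol; the other 4 carry an Entrez identifier alone and were named by matching it to the RefSeq gene table, as *gga3b*, *rab11fip5b*, zgc:100918, and zgc:86896.

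In the lysosome pathway, the hydrolases were few. *ctsl.1*, a cathepsin L protease (Entrez identifier 436641), was upregulated for impurities I, S, and F, *ctsla* (321453) for impurity S, and *ctsd*, the aspartic protease cathepsin D (65225), for impurity I. The 3 proteases were therefore upregulated in all 5 of their entries, and none was listed for azithromycin or impurities J, Q, R, and L. *ctsl.1* alone gave 3 of the 5, so no direction is read for the group. Over all genes, 50.8% of entries were upregulated. Sharing of reads between *ctsl.1* and *ctsla*, both listed for impurity S, was not tested. *aga*, the aspartylglucosaminidase that frees sugars from asparagine in glycoprotein breakdown (566517), was downregulated for impurity Q. No further enzyme of glycan breakdown and no sulfatase of the pathway was listed in any table.

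Of the lysosomal proteins that handle lipids and phosphate esters, *npc2*, the soluble protein that binds cholesterol in the lysosome lumen (282673), was upregulated for azithromycin and impurities Q, R, S, and F and not listed for J, I, and L. *ppt2*, a lysosomal thioesterase (100126133), was downregulated for impurities J, I, R, S, and F. Impurities R, S, and F therefore carried both, whereas azithromycin and impurity Q carried *npc2* alone and impurities J and I *ppt2* alone. *acp5a*, the tartrate-resistant acid phosphatase (406801), was upregulated for impurity F. Of the proton pump that acidifies the compartment, the subunit *atp6v1h* (286779) was upregulated for impurity J and *atp6v1e1b* (192335), which KEGG places in the phagosome pathway, was downregulated for azithromycin.

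Delivery of new enzymes to the lysosome depends on the mannose 6-phosphate tag and on coat adaptors at the Golgi. *gnptab*, the enzyme that makes the tag (553365), was upregulated for impurities I, Q, and R, and *sort1a*, the sorting receptor sortilin (406511), for impurity S. The adaptor and clathrin genes made up 8 of the 18 lysosome genes, with 12 upregulated and 5 downregulated entries. All entries share the DMSO library and *ap1m2* gave 4 of the 12, so no direction is read for the group. Over all genes, 50.8% of entries were upregulated. *ap1m2*, a medium subunit of the AP-1 adaptor (403021), was upregulated for azithromycin and impurities J, R, and F, and its relative *ap1m1* (100330411) was downregulated for impurity J. *ap4s1*, the small subunit of AP-4 (368852), had opposite directions: it was upregulated for impurities S and F and downregulated for impurities J, I, and R. *ap3s2* of AP-3 (436812) was upregulated for impurities J and F, *ap1s1* of AP-1 (393279) for impurity F, and the Golgi adaptor *gga3b* (100334661) for impurity Q. Impurity F had 4 upregulated genes of this group, the largest number of any compound.

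Impurity L had a single lysosome gene, *clta*, the clathrin light chain (406318), which was upregulated and was listed for impurity I as well. Azithromycin had *ap1m2* and *npc2*. Impurity F, at the other end, had *npc2*, *ap4s1*, *ap1m2*, *ctsl.1*, *ap3s2*, *acp5a*, and *ap1s1* upregulated and *ppt2* downregulated.

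**Figure D3:**
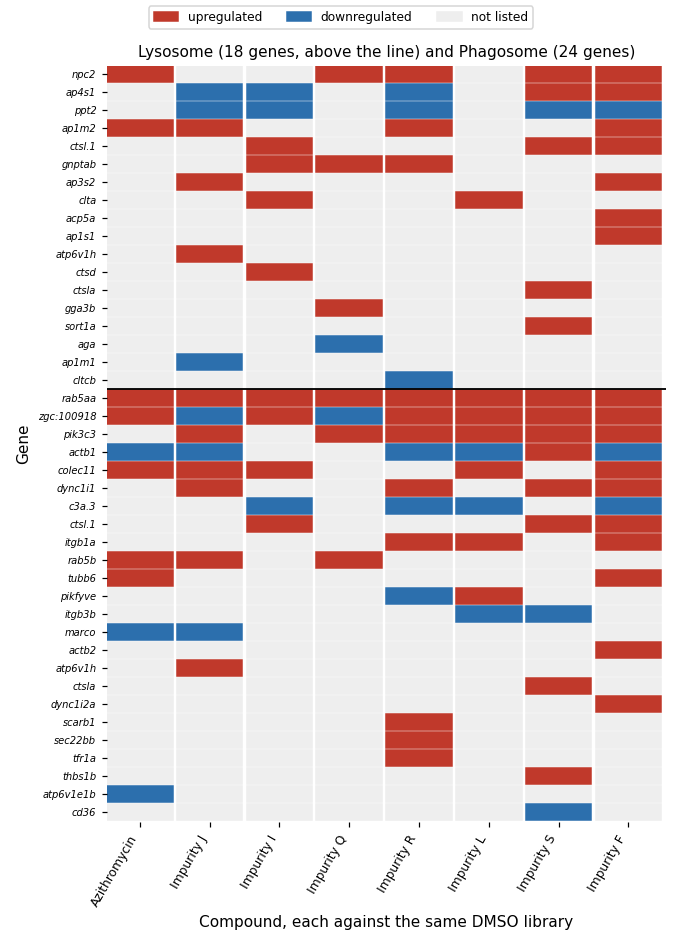
Direction of each lysosome gene (18 rows above the line) and phagosome gene (24 rows below it) for the 8 compounds (columns) against the same DMSO library, in red for upregulated, blue for downregulated, and grey for not listed; *ctsl.1*, *ctsla*, and *atp6v1h* belong to both pathways and appear in each block. *rab5aa* is red in all 8 columns, *actb1* is red for impurity S alone, and the lysosome rows of azithromycin and impurity L hold 2 and 1 coloured cells.

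In the phagosome pathway, the Rab and membrane fusion genes had 20 of the 50 upregulated entries and 1 downregulated entry, over 6 genes. Of the 20, *rab5aa* alone gave 8 and *pik3c3* 6, all against the same DMSO library, so the entry counts rest largely on these genes. Over all genes, 50.8% of entries were upregulated. *rab5aa* (337737), a Rab5 GTPase of early endosomes that also counts in the endocytosis pathway, was upregulated for all 8 compounds, and its relative *rab5b* (405821) for azithromycin and impurities J and Q. *pik3c3*, the lipid kinase Vps34 that makes the phosphoinositide of early endosomes and autophagosomes (548346), was upregulated for impurities J, Q, R, L, S, and F. *pikfyve*, the kinase that acts on the product of Vps34 (337690), was downregulated for impurity R and upregulated for impurity L. The SNARE *sec22bb* (327277) and the transferrin receptor *tfr1a* (494477) were upregulated for impurity R. The gene zgc:100918 (449549), in both the phagosome and endocytosis pathways, was given no role and is not in the counts of this group. It was listed for every compound: it was upregulated for azithromycin and impurities I, R, L, S, and F and downregulated for impurities J and Q.

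The receptors and opsonins of the phagosome pathway were mixed, with 10 upregulated and 9 downregulated entries over 8 genes. *colec11*, a secreted collectin that binds sugars on microbes (492459), was upregulated for azithromycin and impurities J, I, L, and F, whereas *c3a.3*, a copy of complement C3 (565074), was downregulated for impurities I, R, L, and F. Complement C3 genes are a family of close copies in zebrafish, and how reads were shared among them was not tested. The integrin subunit *itgb1a* (556734) was upregulated for impurities R, L, and F, and *itgb3b* (100001836) was downregulated for impurities L and S. The scavenger receptor *marco* (571584) was downregulated for azithromycin and impurity J. *cd36* (436636) was downregulated and *thbs1b*, a thrombospondin (561901), upregulated for impurity S, and *scarb1*, the HDL receptor (387260), was upregulated for impurity R.

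Of the cytoskeletal genes that move phagosomes, the dynein intermediate chains *dync1i1* (561525) and *dync1i2a* (767729) were upregulated, the first for impurities J, R, S, and F and the second for impurity F. *tubb6*, a beta-tubulin (550458), was upregulated for azithromycin and impurity F. *actb1*, a cytoplasmic actin (57934), was downregulated for impurities F, J, L, and R and for azithromycin, but upregulated for impurity S, and its near copy *actb2* (57935) was upregulated for impurity F. Assignment of reads between such copies could not be examined, because the tables hold no reads.

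Macrophage markers were looked up because phagosome genes are prominent in those cells. Of 10 macrophage markers, 2 were listed, and both are themselves among the 100 genes: *marco*, downregulated for azithromycin and impurity J, and *csf1ra*, the macrophage growth factor receptor (64274), downregulated for impurities L and F. The other 8 macrophage markers, the 6 neutrophil, 6 red cell, 5 endothelial, and 4 intestinal markers were not listed in any table, and of 10 markers of the exocrine pancreas *cel.1* was downregulated for impurity I. Of 9 hepatocyte markers 4 were listed, with 12 upregulated and 4 downregulated entries. Among them was *fgb*, a fibrinogen chain, upregulated for every compound but impurity I, where it was downregulated. *fgb* alone gave 7 of the 12 upregulated entries, so no direction is read for these markers. The share of upregulated entries over all genes was 50.8%. *tfa*, transferrin, was downregulated for azithromycin and impurity J and upregulated for impurity Q, *serpina1* was upregulated for impurities I, Q, and F and downregulated for impurity S, and *fga* was upregulated for impurity S. *fabp10a*, the liver fatty acid binding protein, was not listed. The tables name only annotated DEGs, so an unlisted marker says nothing of its level, the label liver could not be checked further, and the part of cell composition in these results was not tested.

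In the endocytosis pathway, the genes of the clathrin coat, its adaptors, and vesicle fission numbered 15, with 20 upregulated and 23 downregulated entries. *ap2m1a*, the medium subunit of the AP-2 adaptor that recognises cargo at the plasma membrane (321051), was downregulated for all 8 compounds. Its relative *ap2m1b* (394001) was upregulated for impurities I, L, and S, so these libraries listed the 2 copies in opposite directions, and sharing of reads between them was not tested. *snx12*, a sorting nexin (394098), was downregulated for azithromycin and impurities J, I, Q, L, and S. The accessory adaptor *epn1* (epsin, 406671) was upregulated for impurities J, Q, L, and S and *eps15* (795505) for impurities Q and R, whereas *dab2* (404040) was downregulated for impurities R and F.

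Proteins that bend membranes and uncoat vesicles were likewise of both directions. *bin1b* (amphiphysin II, 447863) was upregulated for impurities J, Q, and R, and *sh3glb1b*, an endophilin B (334911), for impurities I, R, S, and F. *sh3gl3b* (393150) was upregulated for impurity J and *sh3glb2a* (402885) for impurity L, whereas *sh3gl2* (394091) was downregulated for impurity S. *dnajc6*, the auxilin that recruits Hsc70 to the coat (796345), was downregulated for azithromycin and impurities S and F, and *hspa8*, the Hsc70 ATPase itself (573376), for impurities J, I, and Q. *hsc70* (393586), another gene of that family, was upregulated for impurity F. *ehd2b* (337401) was downregulated for azithromycin and impurity L, and the clathrin heavy chain *cltcb* (503600) for impurity R, beside the upregulated light chain *clta* for impurities I and L.

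The ESCRT group, in which FYVE domain proteins were counted too, had 15 upregulated and 6 downregulated entries over 5 genes. *vps4b* gave 7 upregulated entries and *vps28* 5 upregulated and 3 downregulated ones, all against the same DMSO library. The entry counts rest largely on these genes, and over all genes 50.8% of entries were upregulated. *vps4b*, the ATPase that takes the ESCRT-III polymer apart (393880), was upregulated for all impurities and was not listed for azithromycin. *vps28*, a subunit of ESCRT-I (393562), was listed in every table with both directions: it was upregulated for azithromycin and impurities J, Q, L, and F and downregulated for impurities I, R, and S. *ist1*, a regulator of Vps4 (321460), was upregulated for impurities R and L. Of the FYVE domain proteins, *zfyve16* (794689) was downregulated for azithromycin and impurities Q and S, and *zfyve27* (561659) was upregulated for impurity J. The ubiquitin ligases *cblc* (565383) and *traf6* (554561) were upregulated, the first for impurities R, S, and F and the second for impurity L.

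The Arf GTPases and the proteins that switch them on or off had 12 upregulated and 27 downregulated entries over 13 genes. Of these genes, 4 were always upregulated and 7 always downregulated. *arfgap2* and *cyth1b* gave 7 downregulated entries each, all against the same DMSO library, so the entry counts rest largely on these genes. Over all genes, 50.8% of entries were upregulated. *arfgap2*, a GTPase-activating protein for Arf1 (641490), was downregulated for every compound but impurity F, and *cyth1b*, an exchange factor of the cytohesin family (325586), for every compound but impurity Q. The cytohesin *cyth3b* (100537448) was upregulated for impurities I, L, and S. *asap1a* (100170829) was downregulated for azithromycin and impurities Q, R, and F, and *asap1b* (565859) for impurity R. *arap2* (559690) was upregulated for azithromycin and impurities I and S and downregulated for impurity R, and *arf2b* (327026) was upregulated for impurity Q and downregulated for impurities I and S. Of the exchange factors for Arf6, *iqsec1b* (100148736) was upregulated for azithromycin and impurities J and I, whereas *iqsec3b* (555340), *psd2* (557199), and *psd3l* (559329) were downregulated, for azithromycin, for azithromycin and impurity Q, and for impurities Q and S. *arf6b* (100003206) was upregulated for impurity F and *acap3b* (100009646) for impurity R.

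Beside *rab5aa* and *rab5b*, the Rab effectors and motors comprised *rab11fip5b* (570939), upregulated for impurities I, Q, L, and F, *rab11fip3* (573631), downregulated for azithromycin, and the GTPase *rab11al* (386994), downregulated for impurity I. The kinesin heavy chains differed among themselves: *kif5aa* (566086) was downregulated for azithromycin and impurities J, L, and F, *kif5c* (565563) for impurities I and Q, and *kif5bb* (334108) was upregulated for impurities J and R. The genes of the actin machinery had 8 downregulated of 9 entries over 4 genes, 3 always downregulated and 1 upregulated. *rhoab* alone gave 5 of the 8, so no direction is read for the group. The share of upregulated entries over all genes was 50.8%. The actins *actb1* and *actb2* are counted in the phagosome pathway. *rhoab*, a RhoA GTPase (100006041), was downregulated for impurities J, I, Q, R, and S, *wasla* (100009637), an activator of the Arp2/3 complex, for impurities S and F, and *arpc4l* (445305), a subunit of that complex, for impurity J. The exception was *capza1b*, a capping protein (474327), upregulated for azithromycin.

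Among the receptors and their regulators, *adrbk2* (569403; *grk3* in RefSeq) and *grk4* (560761), kinases that mark activated G protein-coupled receptors for uptake, were both downregulated for impurities J, I, R, L, S, and F and not listed for azithromycin and impurity Q. Sharing of reads between them was not tested. *grk5l* (567452) was downregulated for impurity F. The arrestins that bind such receptors were *arrb2a* (321378), downregulated for impurity L, and *arr3b* (796867), upregulated for impurities J, Q, R, S, and F. *arr3b* is an arrestin of cone photoreceptors, cells that are not part of the liver. A list of symbol patterns for photoreceptor genes, drawn up after this was seen, matched 6 genes listed in any table, *arr3b* included, with 13 upregulated and 5 downregulated entries. Of the 13, *arr3b* gave 5 and *gnb3b* 4, all against the same DMSO library, so no direction is read for the list. Over all genes, 50.8% of entries were upregulated. Whether each of the 6 genes is particular to photoreceptors was not tested. The cone opsin *opn1lw2* was upregulated for azithromycin and impurities S and F, and *pde6g*, a subunit of the photoreceptor phosphodiesterase, was downregulated for impurities I, R, and L. Of the others, *saga* was upregulated for impurity J, *gnb1b* was downregulated for impurity Q, and *gnb3b* was upregulated for impurities J, R, L, and S and downregulated for impurity F. The part of tissue carried along at dissection was not tested.

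The growth factor receptors were listed for few compounds each. *erbb3b* (544664) was upregulated for azithromycin and impurities R and L, *egfra*, the EGF receptor (378478), for impurities I and R, and *met*, the HGF receptor (100150664), for impurity J. *kita* (30256) was downregulated for azithromycin, the cytokine receptor *il2rb* (793920) for impurity I, and *csf1ra* as given above. *smad2*, a transducer of TGF-beta signals (30639), was upregulated for impurities J, Q, and S. *pld1b*, a phospholipase D (572492), was downregulated for azithromycin and impurities I and R, and *hrasb* (553656) for impurities Q, L, and F. The last genes given no role were zgc:86896 (415190), downregulated for impurities R and S, and *sb* (368323), upregulated for impurity S. KEGG also lists zgc:86896 under regulation of actin cytoskeleton, but it is not in the counts of the actin machinery above.

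**Figure D4:**
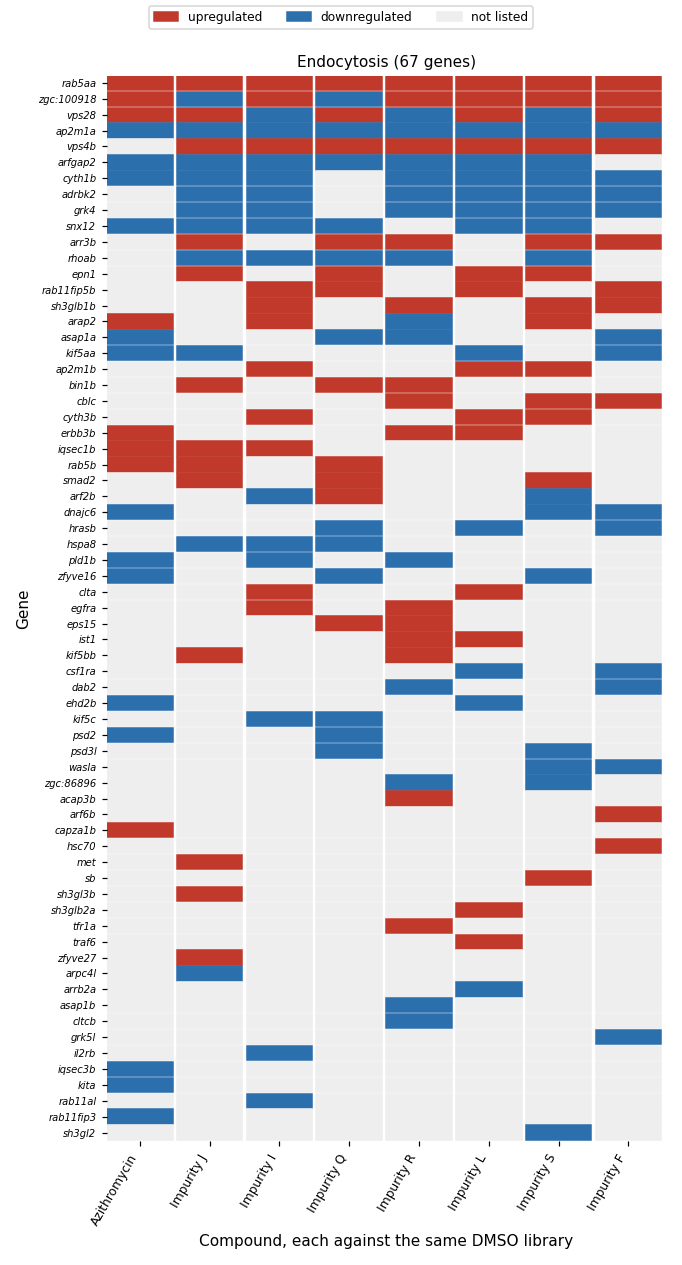
Direction of the 67 endocytosis genes (rows) for the 8 compounds (columns) against the same DMSO library, in red for upregulated, blue for downregulated, and grey for not listed. *rab5aa* is red and *ap2m1a* blue in every column, *vps28* and zgc:100918 change colour between columns, and 22 genes have a single coloured cell.

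The 7 genes with both directions allow the compounds to be set against each other, since their levels lay on opposite sides of the same DMSO value. *vps28* separated azithromycin and impurities J, Q, L, and F from I, R, and S, zgc:100918 separated J and Q from the other compounds, and *ap4s1* separated S and F from J, I, and R. *arap2* separated azithromycin and impurities I and S from R, *arf2b* separated Q from I and S, *actb1* separated S from azithromycin and J, R, L, and F, and *pikfyve* separated L from R. These divisions of the compounds were not the same from gene to gene. No interval can be given for these comparisons of single libraries, and a shared side does not show that the compounds act alike.

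The genes also occurred in other annotated processes. Of the 100 genes, 38 were listed in a Reactome or PANTHER row of a table too, among them 11 under clathrin-mediated endocytosis and 16 under vesicle-mediated transport of Reactome. In KEGG, 11 belonged to regulation of actin cytoskeleton, 9 to focal adhesion, and 8 to Salmonella infection, and 7 were genes of the MAPK signaling pathway: *arr3b*, *arrb2a*, *egfra*, *hrasb*, *hsc70*, *hspa8*, and *traf6*.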

How the data were processed

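RNA of dissected larval liver was sequenced, with 1 library per condition. Per the submitters' processing notes, fastp, FastQC, HISAT2, and the build GRCz11 were used; the paper sets 2-fold as the minimum change of a DEG, mentions upregulation only, and names no test. The deposited tables list, per KEGG, Reactome, and PANTHER pathway, each DEG's symbol, direction, and Entrez number, the number of background genes, and enrichment p-values of the authors, which were not used. The tables hold neither expression values nor read numbers, so depth is unknown.

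Genes were matched by Entrez identifier and counted by pathway, compound, direction, and role, with Python 3.11.15 and matplotlib 3.10.9. Reading of the tables was tested on simulated tables. In all rows the stated number of DEGs equalled the genes listed, and 0 genes had 2 directions in 1 table. KEGG shares used the 148 KEGG pathways of any table. The RefSeq gene table (GRCz12tu) served for names only and matched 100 of 100 genes.

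The members, gene lists, and roles were chosen with earlier results of these data known. Roles came from symbol patterns; 5 of 109 gene and pathway pairs were given a role after their values were seen, and 4 genes have none. By rule, 20 genes were named: those listed for 5 or more compounds, those with at least 2 entries in each direction, the most often listed of each role with 3 or more genes, and those of 2 pathways listed for 3 or more compounds. The remaining names were picked with their values in view. Alternatives counted gene symbols, genes of 1 pathway, 1 entry per symbol stem, and genes also in Reactome or PANTHER. No sequences are shown, as none were used here.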

Additional observations from a re-analysis of the deposited data

How the results depend on the processing

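Counting gene symbols, genes of 1 pathway only, 1 entry per symbol stem, or (chosen after seeing the data) genes with a symbol in the files kept the 19 counts of genes per pathway and per compound within 1.5 times. Counting the FYVE domain genes under both matching roles kept the upregulated and downregulated entries of the Rab group within that range. Keeping only genes that a Reactome or PANTHER row of the same table also lists moved all 19, since fewer genes are annotated there. It left 6 lysosome, 9 phagosome, and 28 endocytosis genes. The upregulated genes were then 3 for azithromycin, 6 for impurity J, 5 for I, 6 for Q, 6 for R, 5 for L, 7 for S, and 8 for F, and the downregulated genes were 8, 8, 10, 6, 11, 6, 10, and 7 in the same order. Downregulated genes thus outnumbered upregulated ones for impurities J, R, L, and S in this subset, and upregulated ones in the full set. No paired analysis was possible because each condition has 1 library. The shares of promoters with a motif, planned at the outset, were not run, since no promoter sequences were used. The unknown depth limits every statement to direction.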

Other observations

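Autophagy feeds the same lysosomes, and its genes were looked up in all rows of the tables. Of the list of autophagy and TFEB genes, 6 were listed, with 6 upregulated and 13 downregulated entries. A single gene, *atg101*, gave 8 of the 13, so no direction is read for the list. Over all genes, 50.8% of entries were upregulated. *atg101*, a subunit of the complex that starts autophagy, was downregulated for all 8 compounds, which share the DMSO library, and *atg13* of the same complex was upregulated for impurities Q and F. *atg4a*, a protease that processes the Atg8 proteins, was downregulated for azithromycin and impurities J and F, and *becn1*, a partner of Vps34, was upregulated for impurity J. *flcn*, a regulator of the lysosomal nutrient sensor, was downregulated for impurities L and F. *mitfb*, a transcription factor of the family of TFEB, was upregulated for azithromycin and impurities J and Q.

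Of the sterol genes, *hmgcra*, the rate-limiting enzyme of cholesterol synthesis, was downregulated for impurities J, I, Q, L, and F, and *hmgcs1* was upregulated for impurity S. *hmgcra* and the upregulated *npc2* were both listed for impurities Q and F. *hmgcra* was listed without *npc2* for impurities J, I, and L, and *npc2* without *hmgcra* for azithromycin and impurities R and S. Of a list of lipid turnover genes, 8 were listed with 12 upregulated and 10 downregulated entries. This list also holds cholesterol exporters and *npc2*, a lysosome gene already described above, which gave 5 of the upregulated entries. The cholesterol exporter *abca1a* was downregulated for impurities J, Q, R, and S and azithromycin, and its copy *abca1b* was upregulated for azithromycin. *pld3*, a lysosomal exonuclease of the phospholipase D family, was upregulated for impurities Q and S. *smpd5* was downregulated for impurities J, L, and Q and azithromycin and *gba2* was upregulated for impurities I, Q, and L, and both act outside the lysosome. The remaining genes of the list were *smpd4*, upregulated for impurity J, and *asah2*, downregulated for impurity S. Their place in the cell was not examined, so the list is not read as lysosomal.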
